A study of Mus musculus with 6 samples.

Results

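The circular RNAs (circRNAs) of membrane transporter genes were examined in mouse cortex after Status Epilepticus (SE). A circRNA was taken when a single host gene was listed for it and the host's symbol began with Slc and a number, with Atp1a, Atp2a, Atp2b, Atp2c, Atp6v, Atp8, Atp9, Atp10 or Atp11, or with Abca, Abcb or Abcc. This gave 197 of the 11171 circRNAs, from 77 of the 3469 genes that stood alone as a host. The solute carriers gave 57 of these hosts with 130 circRNAs, the ion pumps, flippases and V-ATPase subunits gave 13 hosts with 54 circRNAs, and the ABC transporters gave 7 hosts with 13 circRNAs. Another 2 circRNAs that listed a second gene as host as well were left out.

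The TLE group held 3 male C57BL/6 mice of 6 weeks that received pilocarpine after scopolamine methyl bromide, as a model of temporal lobe epilepsy, and diazepam to end SE. The Control group held 3 male mice of the same strain and age that received saline in place of each of these agents. Cortex was taken 24 h after SE in the TLE group, and 1 library was made per mouse from RNA depleted of ribosomal RNA. The libraries were whole cortex, so fewer cells of a type and less circRNA per cell cannot be told apart, and the linear RNA of the hosts was not analysed here. The values are SRPBM, a spliced-read unit in which the reads that cross a back-splice junction are set against all mapped reads of the library.

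Solute carriers move ions, amino acids, sugars and metals along or against gradients that other proteins maintain, and the P-type pumps and the V-ATPase spend ATP to build such gradients. Flippases move phospholipids between the leaflets of a membrane, and ABC transporters export lipids and other compounds. In the cortex, these proteins return calcium, potassium, chloride and protons to their resting levels after neurons fire and take up transmitter and fuel. A circRNA forms when the end of an exon is spliced to the start of the same or an upstream exon, and it carries part of the host transcript as a closed ring.

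The junction sequences show how the transporter circRNAs shared their ends. In each line the last 15 bases before the back-splice are in lower case and the first 15 bases after it are in capitals, 5′ to 3′ on the host strand, read from GENCODE M21 transcripts of GRCm38 (mm10). The 4 circRNAs of Slc8a1, the sodium-calcium exchanger that clears calcium across the plasma membrane, come first because 3 of them have the same capitals.
mmu_circ_0003866: tcactgtcagcgctgCAAAACAATATCAGT
mmu_circ_0003865: gaacctcggtgccagCAAAACAATATCAGT
mmu_circ_0003863: ggccagaaataggagCAAAACAATATCAGT
mmu_circ_0003864: gaacctcggtgccagAGGAATATGATGACA
These lie on the minus strand at chr17:81428182-81445593, chr17:81408067-81445593, chr17:81388810-81445593 and chr17:81408067-81432774. The first 3 begin at exon 3 and end at exons 9, 10 and 11, so 1 splice acceptor was joined to 3 different donors. The fourth joins exon 10 to exon 8 and uses the donor of the second.

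Slc24a2, the potassium-dependent sodium-calcium exchanger of neurons, and its relative Slc8a3 are shown because their TLE libraries all lay above their Control libraries.
mmu_circ_0007565: tgacatcactgtgggGGAGGTTCAGAGAAA
mmu_circ_0007566: tgacatcactgtgggAACTTGGATCATATG
mmu_circ_0007567: tgacatcactgtgggTCACCTACAGCTGGG
mmu_circ_0007568: tggtgggcacaccagGGAGGTTCAGAGAAA
mmu_circ_0007570: gctgcagatgccccgTCACCTACAGCTGGG
mmu_circ_0001638: gaatgatgaaacagtGTCACAGGCCTGTCA
The first 5 belong to Slc24a2, on the minus strand at chr4:86996513-87032291, chr4:86996513-87049934, chr4:86996513-87076157, chr4:87001310-87032291 and chr4:87028246-87076157. The lower-case bases of the first 3 are the same, since they end at exon 10 and begin at exons 6, 5 and 3. The last line is the only circRNA of Slc8a3, at chr12:81314260-81316104, in which exon 2 is joined to itself.

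Other hosts also used 1 splice site in several circRNAs, shown here for Slc16a7, a monocarboxylate carrier of neurons, Slc7a11, the cystine-glutamate exchanger, and Atp6v1h, a V-ATPase subunit.
mmu_circ_0000108: tcatgtatgcgggagATAATCTGGAGGCTG
mmu_circ_0000109: tcatgtatgcgggagATAACAGTGCACCAT
mmu_circ_0006761: agacaaccctgaaaaCCCTGGAGCTACTGC
mmu_circ_0006762: agacaaccctgaaaaGAGCCCTGTCCTATG
mmu_circ_0005285: cagctgagttcacagGGGGCAGATGATTTC
mmu_circ_0005286: atctcttcaagtgatGGGGCAGATGATTTC
The pairs of Slc16a7 (chr10:125294595-125302081 and chr10:125294595-125341850) and Slc7a11 (chr3:50417988-50435464 and chr3:50417988-50438915) share the donor of exon 6. The Atp6v1h pair (chr1:5089009-5098133 and chr1:5089009-5101123) shares the acceptor of exon 3.

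The shared ends carried most of the signal of the leading hosts. The 3 exon 3 circRNAs held 99.0% of the SRPBM of Slc8a1. Of the 16 circRNAs of Atp9b, a flippase of the trans-Golgi network and the host with the most circRNAs, 8 began at exon 2 and held 87.4% of its SRPBM. All 3 circRNAs of the related flippase Atp9a and all 3 of the choline transporter Slc44a1 also began at exon 2. Slc24a2 was arranged otherwise: its 9 circRNAs used 4 acceptors and 5 donors, and its highest circRNA held 20.4% of its SRPBM. The plot of joined exons shows these arrangements.

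**Figure D1:**
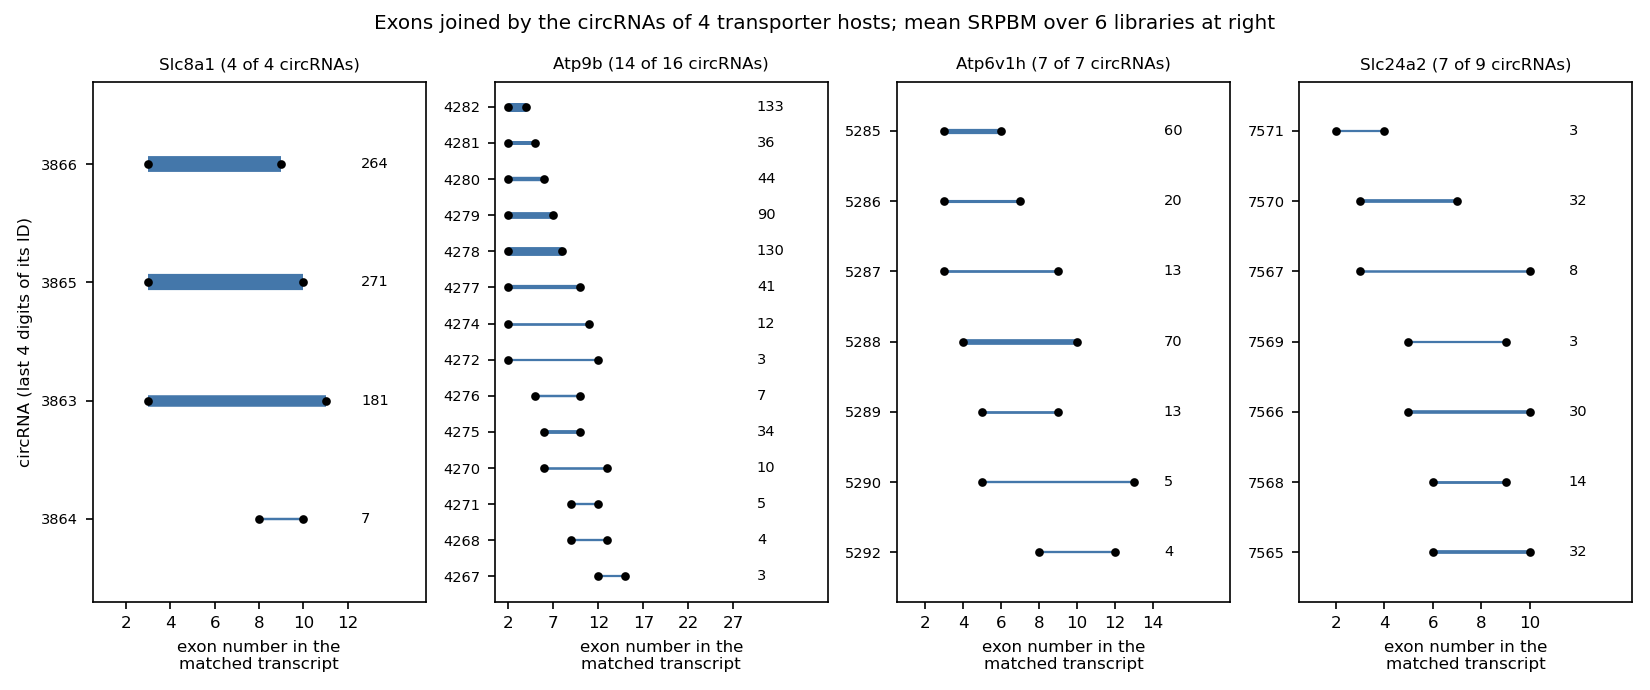
Exons joined by the circRNAs of Slc8a1, Atp9b, Atp6v1h and Slc24a2; each bar runs from the first to the last exon of a circRNA, numbered in its matched transcript (x axis), its thickness grows with the mean SRPBM over 6 libraries, which is printed at right, and circRNAs without both ends on exon boundaries are not drawn. The bars of Slc8a1 begin together at exon 3 apart from 1 circRNA and 8 bars of Atp9b begin at exon 2, while those of Slc24a2 begin at exons 2, 3, 5 and 6.

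In their general structure the transporter circRNAs were close to the other circRNAs. Both ends lay on annotated exon boundaries in 178 of 197, or 90.4% (95% Wilson interval 85.4 to 93.7), against 90.9% of the 10273 circRNAs with a single host. The 175 that could be placed on a transcript held a median of 4 exons and 629 bases, against 4 exons and 608 bases. Exon 2 was the first exon in 66 of them, 37.7% against 29.2%, and 28 of them, 16% against 15.1%, held the annotated start codon. The exons lay wholly within the coding sequence in 144, and in 47 of these, 32.6% against 39.1%, the summed length was a multiple of 3. These shares are descriptions over all circRNAs, without a test.

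Single-exon circles were few, with 9 of the 175 (5.14% against 3.95%). Of these, 6 were made of exon 2 and 5 held the start codon, those of Slc8a3, Atp2b1, Atp2b4, Slc41a2 and Slc45a4. Atp2b1 and Atp2b4 are plasma membrane calcium pumps, and whether these 5 hosts share a function more often than other hosts was not tested. By class, the share of placed circRNAs with exon 2 first ran from 13.3% to 66.7%. The lowest was that of the sodium-calcium exchangers (2 of 15) and the highest that of the nucleotide sugar transporters (2 of 3). Between them were the flippases with 13 of 27, of which 8 came from Atp9b and 3 from Atp9a. The bicarbonate, proton and chloride transporters had 5 of 27.

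Most transporter circRNAs rested on few reads. Each library held 32504 to 56516 junction reads of all circRNAs, of which 360 to 756 were of transporter hosts, and 3 reads corresponded to 25.6 to 31.0 SRPBM. The median transporter circRNA had 5 reads over the 6 libraries and 5 circRNAs had 100 reads or more. Detection in a single library was the commonest case, with 91 circRNAs (46.2% against 44.1% of all with a single host), and 26 circRNAs (13.2% against 14.6%) were above 0 in every library. The smallest value above 0 in any library was worth 2 reads, so a listed 0 may also be a junction seen once.

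The signal was concentrated in a few hosts. Slc8a1 held 15.5% of the summed transporter SRPBM, the 8 highest hosts held 52.1%, and the 20 highest held 78.9%. At the other end, 20 of the 77 hosts were seen in 1 library only, and 23 were seen in all 6. Among the hosts seen in few libraries were genes with well-known roles at the synapse. Slc1a2, the main glutamate transporter of astrocytes, was above 0 only in Control 3, with 17.2 SRPBM, and in TLE 3, with 34.6 SRPBM. Slc12a2, the chloride importer, was listed at 0 in every Control library and in TLE 3, at 20.7 SRPBM in TLE 1 and at 43.8 SRPBM in TLE 2.

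To ask whether the transporter circRNAs as a whole differed after SE, their SRPBM was summed in each library. The sums were 4247, 4156 and 4186 SRPBM in Control 1, 2 and 3 and 3719, 5164 and 6542 SRPBM in TLE 1, 2 and 3. TLE 1 lay below every Control library and the other 2 TLE libraries above, so the groups overlapped. The means were 4196 ± 46.5 (SD, n = 3) and 5141 ± 1412 (SD, n = 3), and a two-sided exact permutation test found no difference between them (p = 0.4). With 3 libraries against 3, this test cannot give a p under 0.1. The order of the TLE libraries was that of their junction reads, 32504, 46653 and 56516, and the part of depth in the result was not tested.

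The share of the whole library SRPBM moved little. It was 1.21%, 1.26% and 1.16% in the Control libraries and 1.11%, 1.26% and 1.34% in the TLE libraries (exact permutation p = 0.8). The number of transporter circRNAs detected was 76, 77 and 80 in Control and 66, 88 and 109 in TLE (exact permutation p = 0.6). Brought to the 32504 reads of TLE 1, the expected number was 69.1 ± 3.39 over the 3 Control libraries and 71.2 ± 5.25 over the 3 TLE libraries (mean ± SD, exact permutation p = 0.6). The 62 transporter circRNAs seen only in TLE libraries made up 31.5%, against 30.5% of all circRNAs, and the 41 seen only in Control libraries made up 20.8%, against 22.6%.

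Each host was then compared with limma on log2(SRPBM + 17.1), the added value being the smallest above 0, over the 2157 single hosts above 0 in at least 3 libraries. A host was called at an absolute log2 fold change of at least 1.5 with an unadjusted p under 0.05, the threshold of the study. Of the 77 transporter hosts, 45 entered. None was called higher and none lower, against 1.53% and 0.371% of all hosts tested. At an unadjusted p under 0.05 alone there was 1 transporter host, Slc24a2, or 2.22% against 6.17%, and no adjusted p of a transporter host was below 0.728. Every TLE library lay above every Control library in 3 transporter hosts (6.67% against 10.7%), and the reverse held in 0 (against 1.95%). Each limma p sets the group difference against a spread between libraries, 1 per mouse, that is drawn towards the trend over all hosts. That spread includes counting error, and the p-values cover only the mice of this experiment.

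**Figure D2:**
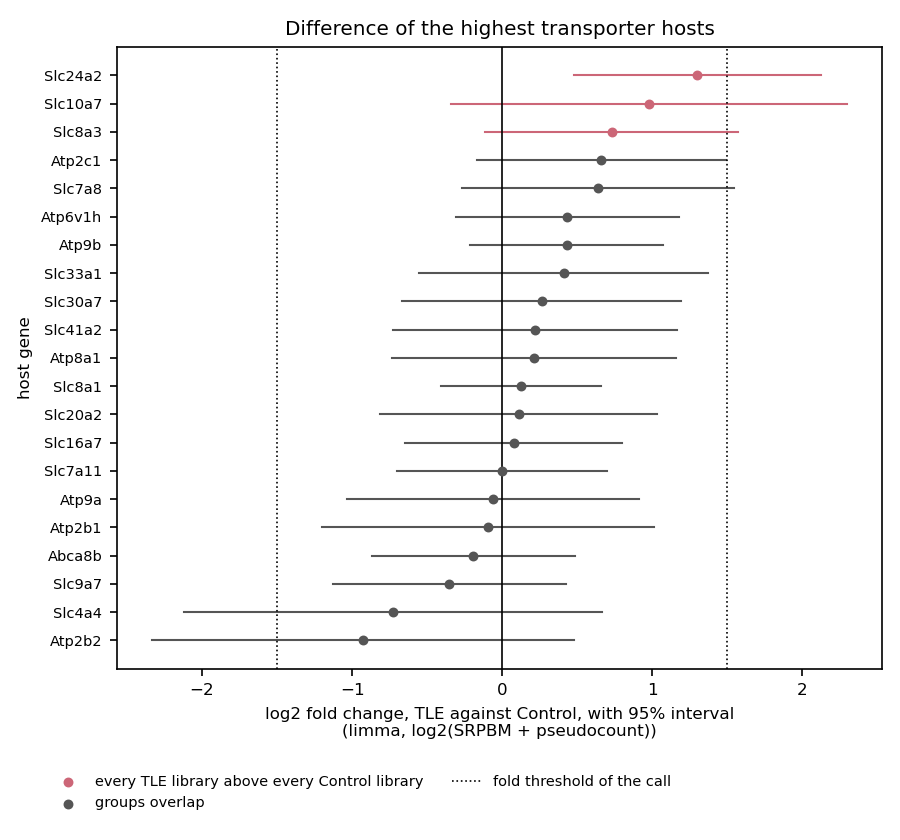
Log2 fold change, TLE against Control, of the 20 highest transporter hosts and of Slc10a7 (y axis) with 95% intervals (x axis, limma on log2(SRPBM + 17.1)); dotted lines mark the fold threshold of 1.5 and red marks hosts whose TLE libraries all lie above the Control libraries. The interval of 1 host, Slc24a2, lies wholly on 1 side of 0, and the values run from −0.93 for Atp2b2 to 1.30 for Slc24a2.

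The fold changes were centred near those of all hosts. The median log2 fold change was 0.18 over the 45 transporter hosts and 0.20 over all hosts tested, and 28 of the 45 were positive (62.2% against 65.3%). With every library rescaled to the same total SRPBM, both medians were 0.02.

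The calcium exchangers were the largest class and held the host that differed most. The 5 hosts of the Slc8 and Slc24 families held 21.7% of the transporter SRPBM, with a Control sum of 855 ± 76.8 SRPBM (SD, n = 3) and a TLE sum of 1167 ± 355 (SD, n = 3) (exact permutation p = 0.2, adjusted over the 13 classes 0.65). All 3 tested hosts of the class, Slc8a1, Slc8a3 and Slc24a2, had a positive log2 fold change, as did 65.3% of all hosts tested.

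Slc24a2 summed to 94.0, 55.8 and 94.7 SRPBM in Control 1, 2 and 3 and to 145, 237 and 312 SRPBM in TLE 1, 2 and 3. Every TLE library was thus above every Control library, and the means were 81.5 ± 22.3 (SD, n = 3) and 231 ± 83.6 (SD, n = 3). The log2 fold change was 1.30 (SE 0.39, 95% interval 0.48 to 2.12, unadjusted limma p = 0.00373, adjusted p = 0.728, exact permutation p = 0.1), under the fold of the call, and the host ranked 7 of 2157 by p. Without TLE 1, the shallowest library, the value was 1.58 and would have been called, and over all libraries left out in turn it lay between 1.07 and 1.58. Without TLE 1, 54 of all 2045 hosts tested were called higher, against 33 of 2157 with every library.

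The same values of Slc24a2 were also set against those of the other transporters and divided by circRNA, which adds no separate support for a difference. It took 2.21%, 1.34% and 2.26% of the transporter SRPBM in the Control libraries and 3.89%, 4.58% and 4.76% in the TLE libraries. The reads behind these values were 11, 6 and 11 in Control and 14, 27 and 36 in TLE. Between 2 and 3 of its 9 circRNAs were seen in a Control library and 5, 6 and 8 in TLE 1, 2 and 3. The part of read number and library depth in this count was not tested. Its highest circRNA, mmu_circ_0007565, which joins exon 10 to exon 6, was at 17.1, 37.2 and 0 SRPBM in Control and 41.3, 61.4 and 34.6 SRPBM in TLE, and these overlapped.

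One circRNA of Slc24a2, mmu_circ_0007563 (chr4:86991085-87049934, 1 end off an annotated exon boundary), was listed at 0 throughout the Control group, while TLE 1, 2 and 3 held 20.7, 17.5 and 51.9 SRPBM. It entered the comparison only through its TLE values, so no p is given for it. Its TLE mean was 1.14-fold the mean floor of 3 reads per Control library. With 2, 2 and 6 reads in TLE 1, 2 and 3, this rests on TLE 3 and is not a lower bound.

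Slc8a3, a sodium-calcium exchanger of brain and muscle, had only its exon 2 circle. It was at 76.9, 65.1 and 112 SRPBM in Control and 124, 202 and 130 SRPBM in TLE, so the groups did not overlap here either. As a share of the transporter SRPBM it did overlap, at 1.81%, 1.57% and 2.67% in Control and 3.33%, 3.90% and 1.98% in TLE. The log2 fold change in the host comparison was 0.73 (SE 0.40, 95% interval −0.12 to 1.57, limma adjusted p = 0.834), and with 9, 7 and 13 reads in Control and 12, 23 and 15 in TLE the interval spanned 0.

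Slc8a1, the highest host, showed no such separation. Its 4 circRNAs summed to 743, 669 and 629 SRPBM in Control and 578, 666 and 1056 SRPBM in TLE. TLE 1 was the lowest and TLE 3 the highest of the 6 libraries, and the log2 fold change was 0.12 (SE 0.25, 95% interval −0.41 to 0.66, adjusted p = 0.945). This interval leaves out a change of the size required for a call. Its 3 circRNAs from exon 3 were near each other in level: mmu_circ_0003865 was at 250 ± 88.1 SRPBM (SD, n = 3) in Control and 293 ± 114 in TLE, mmu_circ_0003866 at 266 ± 75.4 and 262 ± 71.9, and mmu_circ_0003863 at 159 ± 31.2 and 203 ± 64.2. None of the 3 differed beyond the spread of the libraries, with limma log2 fold changes of 0.22, −0.01 and 0.30 and adjusted p of 0.922, 0.997 and 0.922. Rescaling every library to the same total turned the value of the host to −0.10.

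**Figure D3:**
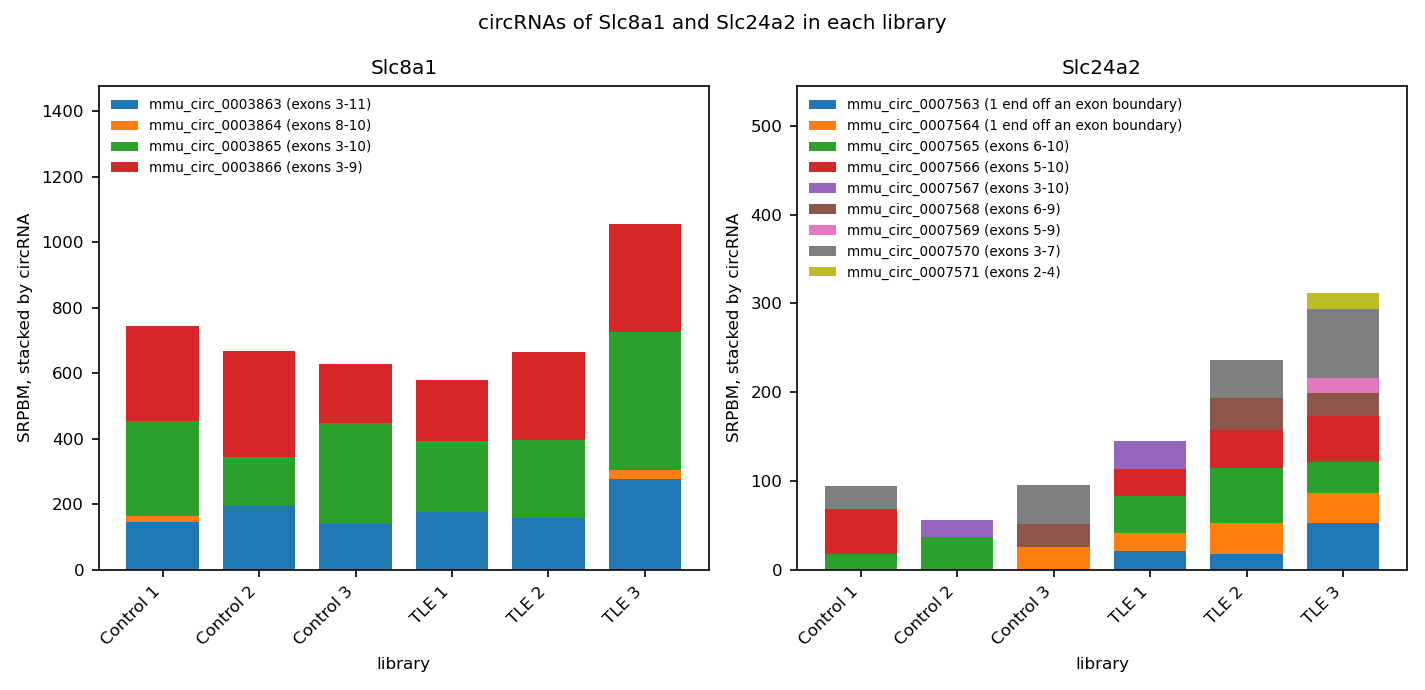
SRPBM of each circRNA of Slc8a1 (left) and Slc24a2 (right), stacked in each of the 6 libraries (x axis; y axis in SRPBM, with different scales). The Slc8a1 bars reach 578 to 1056 SRPBM with the same 3 circRNAs in every library, while the Slc24a2 bars reach 55.8 to 94.7 SRPBM in Control and 145 to 312 SRPBM in TLE and hold more circRNAs in TLE.

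The flippases were the second class, with 16.8% of the transporter SRPBM at 670 ± 102 SRPBM (SD, n = 3) in Control and 901 ± 378 in TLE (exact permutation p = 0.4). Atp9b summed to 402, 372 and 629 SRPBM in Control and 372, 772 and 822 SRPBM in TLE. One TLE library was level with the lowest Control library and the other 2 were above all of them (log2 fold change 0.43, SE 0.31, limma adjusted p = 0.891). Its circRNAs from exon 2 summed to 409 ± 104 SRPBM (SD, n = 3) in Control and 572 ± 202 in TLE, with the groups overlapping.

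Within Atp9b, individual circRNAs went different ways. The circRNA of exons 2 to 8, mmu_circ_0004278, was at 76.9, 37.2 and 146 SRPBM in Control and 145, 210 and 164 SRPBM in TLE. Its log2 fold change of 1.0 (SE 0.41) had an adjusted limma p of 0.838 and was among the 4 at an unadjusted p under 0.05, and the lowest TLE library was just under the highest Control library. The circRNA of exons 2 to 7, mmu_circ_0004279, was at 76.9, 130 and 121 SRPBM in Control and 31.0, 70.1 and 112 SRPBM in TLE (log2 fold change −0.60, SE 0.44, adjusted p = 0.922). The circRNA of exons 2 to 4, mmu_circ_0004282, was at 120, 65.1 and 86.1 SRPBM in Control and 72.3, 281 and 173 SRPBM in TLE. These 3 circRNAs share an acceptor and reads of 1 host, and the difference between them was not tested.

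The other flippases overlapped between the groups. Atp9a summed to 128, 130 and 86.1 SRPBM in Control and 41.3, 158 and 173 SRPBM in TLE (log2 fold change −0.06, SE 0.47, limma adjusted p = 0.985). Atp8a1, which carries phosphatidylserine, summed to 94.0, 65.1 and 68.9 SRPBM in Control and 62.0, 87.7 and 130 SRPBM in TLE (0.21, SE 0.45, adjusted p = 0.952). In both, TLE 1 held the lowest value of the 6 libraries.

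The calcium pumps gave all 4 hosts of the P-type cation pump class, which summed to 364 ± 84.6 SRPBM (SD, n = 3) in Control and 412 ± 177 in TLE (exact permutation p = 0.8). Atp2c1, the calcium and manganese pump of the Golgi, was at 197, 74.4 and 86.1 SRPBM in Control and 196, 149 and 208 SRPBM in TLE. Its TLE libraries lay above Control 2 and 3 and around Control 1 (log2 fold change 0.66, SE 0.40, limma adjusted p = 0.854). The prefixes Atp1a and Atp2a gave no member among the circRNAs used here.

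The plasma membrane pumps varied more between libraries. Atp2b2, from a single circRNA of exons 9 to 11, held 145, 102 and 51.7 SRPBM in Control but 51.6, 0 and 147 SRPBM in TLE. TLE 3 was as high as the highest Control library and TLE 2 was listed at 0, so that the log2 fold change of −0.93 had an SE of 0.67 (adjusted p = 0.891). Without TLE 3 it was −1.68 and would have been called lower, which rests on 2 TLE libraries. In that setting 22 of all 1943 hosts tested were called lower, against 8 of 2157 with every library. Atp2b1, with 11 circRNAs of low level, summed to 59.8, 139 and 51.7 SRPBM in Control and 31.0, 78.9 and 130 SRPBM in TLE (−0.10, SE 0.53, adjusted p = 0.980). Atp2b4 was at 42.7, 55.8 and 86.1 SRPBM in Control and 114, 17.5 and 112 SRPBM in TLE (0.13, SE 0.57).

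Of the V-ATPase, which acidifies synaptic vesicles and lysosomes, Atp6v1h was the leading host. Its 7 circRNAs summed to 162, 102 and 207 SRPBM in Control and 269, 167 and 208 SRPBM in TLE. The groups overlapped, with a log2 fold change of 0.43 (SE 0.35, limma adjusted p = 0.891). Its highest circRNA, mmu_circ_0005288 of exons 4 to 10, was above 0 in all libraries and so was mmu_circ_0005285 of exons 3 to 6. Among 9 genes for V-ATPase assembly and regulation, 5 were hosts and 5 were tested. None was called (against 1.53% higher and 0.371% lower of all hosts) or reached an unadjusted p under 0.05 (against 6.17%), which with 5 genes is near the background. The largest of these, Wdr7, a rabconnectin subunit, was at 336 to 590 SRPBM in Control and 403 to 935 SRPBM in TLE.

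The amino acid transporters followed the flippases by level, with 409 ± 29.0 SRPBM (SD, n = 3) in Control and 504 ± 123 in TLE (exact permutation p = 0.4). Slc7a11 exports glutamate in exchange for cystine, which cells need for glutathione. Its circRNAs summed to 222, 223 and 146 SRPBM in Control and 165, 175 and 251 SRPBM in TLE, with a log2 fold change of 0.00 (SE 0.33, 95% interval −0.70 to 0.70, limma adjusted p = 0.999). Of this, 91.1% came from mmu_circ_0006762, which begins at exon 2. Slc7a8, an exchanger of neutral amino acids, was at 68.4, 83.7 and 164 SRPBM in Control and 93.0, 263 and 173 SRPBM in TLE from 1 circRNA. Its groups overlapped as well (0.64, SE 0.43, adjusted p = 0.860).

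The sugar and monocarboxylate transporters were led by Slc16a7, which neurons use to take up lactate and ketone bodies. It summed to 214, 167 and 138 SRPBM in Control and 134, 219 and 199 SRPBM in TLE (log2 fold change 0.08, SE 0.34, limma adjusted p = 0.979). Its circRNA of exons 4 to 6, mmu_circ_0000108, held 62.3% of this and overlapped between the groups. The circRNA that uses the same donor but begins at exon 2, mmu_circ_0000109, was at 25.6, 27.9 and 25.8 SRPBM in Control, which is 3 reads in each library, and 51.6, 43.8 and 51.9 SRPBM in TLE. These groups did not overlap, but the log2 fold change of 0.60 had an SE of 0.53 (limma adjusted p = 0.922), and this circRNA was singled out after its values were seen.

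The bicarbonate, proton and chloride transporters were the class with most negative values. They summed to 403 ± 61.2 SRPBM (SD, n = 3) in Control and 347 ± 35.0 in TLE (exact permutation p = 0.3), and 4 of 5 tested hosts had a negative log2 fold change, none of them called. Slc9a7, a sodium-proton exchanger of the trans-Golgi network, was at 128, 139 and 190 SRPBM in Control and 93.0, 123 and 130 SRPBM in TLE. The highest TLE library was just above the lowest Control library (−0.35, SE 0.37, limma adjusted p = 0.905). Slc9a9, its endosomal relative, had a positive value, with 0, 65.1 and 51.7 SRPBM in Control and 20.7, 96.4 and 121 SRPBM in TLE (0.87, SE 0.68, adjusted p = 0.891). Slc9a9 was named after its values were seen.

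Slc4a4, the sodium bicarbonate cotransporter of astrocytes, varied widely in TLE. Its 11 circRNAs summed to 68.4, 83.7 and 103 SRPBM in Control and to 155, 0 and 60.6 SRPBM in TLE, so the TLE libraries lay both above and below the Control range. The log2 fold change was −0.73 (SE 0.66, limma adjusted p = 0.891), and it was 0.19 without TLE 2. Among 8 regulators of cation-chloride cotransport, kinases and their partners that act on the Slc12 family, 6 were hosts and 5 were tested, with 0 called and 0 at an unadjusted p under 0.05, beside the same 1.53%, 0.371% and 6.17% of all hosts. Stk39, the kinase that phosphorylates these cotransporters, was the highest at 1897 to 2042 SRPBM in Control and 1942 to 2925 SRPBM in TLE.

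Metal transporters had 3 tested hosts, all with a positive value, beside 65.3% of all hosts tested, and none called. Slc30a7, which loads zinc into the Golgi, was at 85.5, 65.1 and 86.1 SRPBM in Control and 62.0, 105 and 138 SRPBM in TLE (log2 fold change 0.26, SE 0.44, limma adjusted p = 0.917). Slc41a2, a magnesium transporter, summed to 85.5, 83.7 and 68.9 SRPBM in Control and 155, 61.4 and 86.5 SRPBM in TLE (0.22, SE 0.45, adjusted p = 0.945). Both overlapped between the groups.

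Among the ABC transporters, Abca8b, a member of the lipid-transporting A subfamily, came after Slc8a1 and Atp9b in level. It summed to 325, 260 and 284 SRPBM in Control and 155, 289 and 346 SRPBM in TLE, nearly all from mmu_circ_0000598, whose exons 5 to 10 gave 95.3%. TLE 1 was low and the other TLE libraries were within or above the Control range (log2 fold change −0.19, SE 0.32, limma adjusted p = 0.917). Of the remaining solute carriers, Slc33a1, which carries acetyl-CoA into the endoplasmic reticulum, was at 94.0, 55.8 and 138 SRPBM in Control and 82.6, 96.4 and 242 SRPBM in TLE (0.41, SE 0.46). Slc20a2, a phosphate importer, was at 111, 167 and 60.3 SRPBM in Control and 72.3, 132 and 156 SRPBM in TLE (0.11, SE 0.44). Their limma adjusted p were 0.905 and 0.976.

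The smallest classes were the neurotransmitter transporters and the mitochondrial carriers, with 1.02% and 0.91% of the transporter SRPBM. The 7 neurotransmitter transporter circRNAs summed to 34.2, 37.2 and 17.2 SRPBM in Control and 41.3, 61.4 and 95.2 SRPBM in TLE. The groups did not overlap (exact permutation p = 0.1, the smallest possible, adjusted over the 13 classes 0.65), but the class rested on 32 reads in all, and 6 of the 7 were seen in 1 library only. The class was drawn by gene family and not by the compound carried, and different hosts gave its TLE values. All of TLE 1 came from Slc17a5, which was at 0 in TLE 2 and 3. TLE 2 came from Slc18b1, at 43.8 SRPBM, and Slc6a8, at 17.5 SRPBM. TLE 3 came from Slc18b1, at 60.6 SRPBM, and Slc1a2, at 34.6 SRPBM. The highest of these hosts was Slc18b1, the vesicular polyamine transporter, at 34.2, 0 and 0 SRPBM in Control and 0, 43.8 and 60.6 SRPBM in TLE (log2 fold change 0.81, SE 0.71, limma adjusted p = 0.891). The mitochondrial carrier Slc25a26, which imports S-adenosylmethionine, was at 0, 18.6 and 60.3 SRPBM in Control and 0, 35.1 and 26.0 SRPBM in TLE (−0.10, SE 0.70). Slc35f5, the highest nucleotide sugar transporter family host, was at 42.7, 149 and 43.1 SRPBM in Control and 31.0, 52.6 and 112 SRPBM in TLE (−0.15, SE 0.56).

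**Figure D4:**
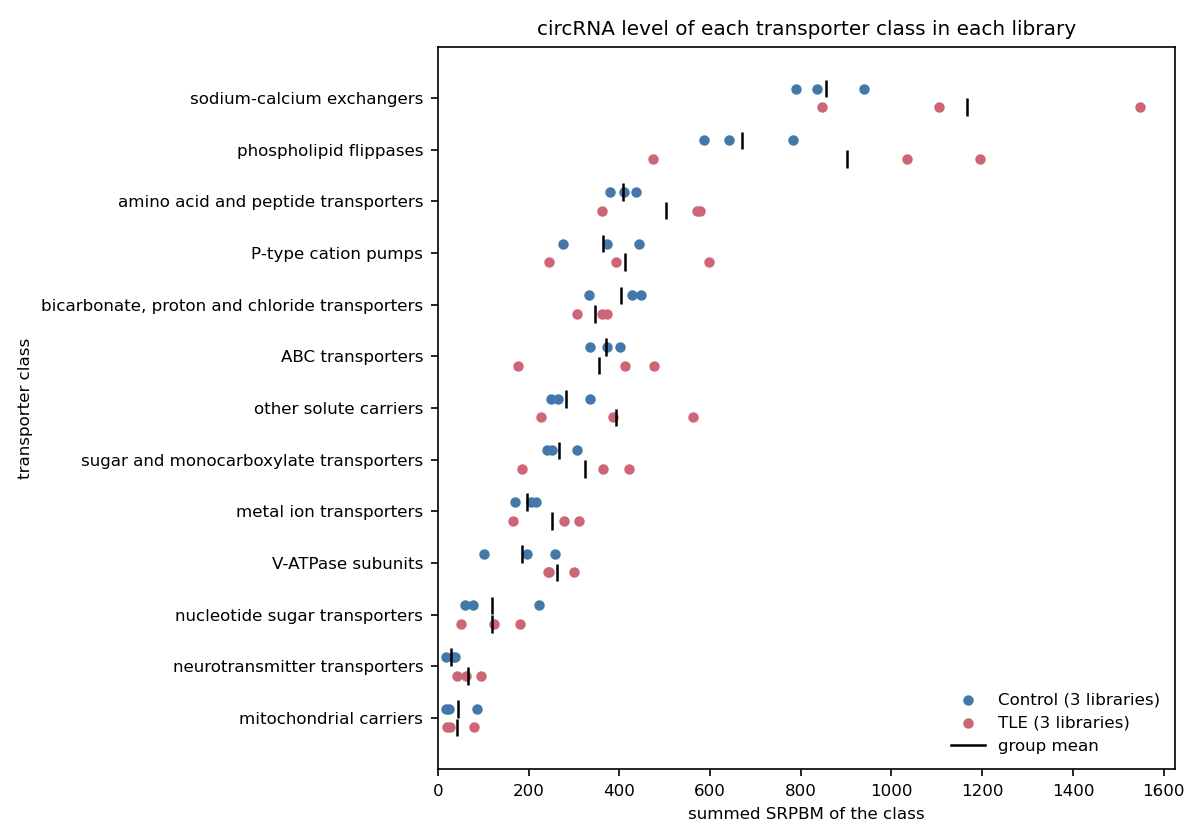
Summed SRPBM of each of the 13 transporter classes (y axis) in each library (x axis, SRPBM); points are libraries and bars group means. TLE points lie both above and below the Control points in most classes. The neurotransmitter transporters, at 17.2 to 37.2 SRPBM in Control and 41.3 to 95.2 SRPBM in TLE, are the class whose groups do not overlap. This class was drawn by gene family and rests on 32 reads, from hosts that differ between the TLE libraries.

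**Figure D5:**
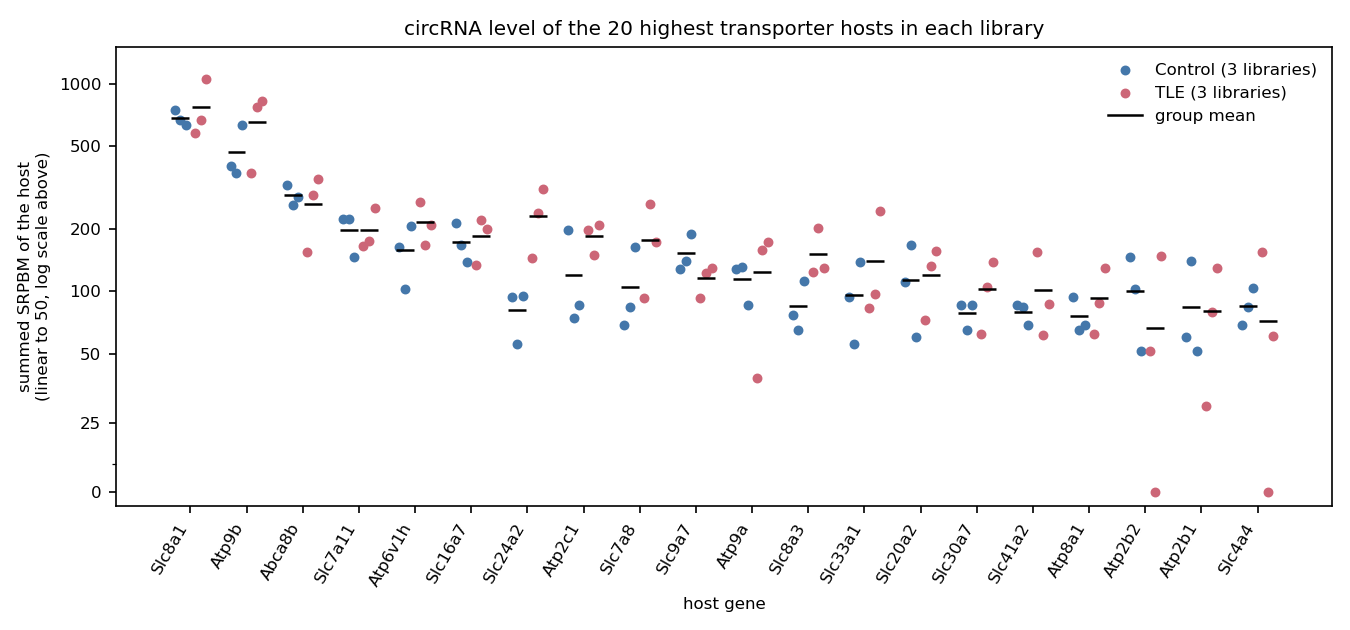
Summed SRPBM of the 20 highest transporter hosts in each library (y axis, linear to 50 and logarithmic above); points are libraries and bars group means. The hosts run from Slc8a1, at 578 to 1056 SRPBM, down to Slc4a4, and the red points of Slc24a2 and Slc8a3 all lie above their blue points.

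The single circRNAs were compared in the same way over the 4271 circRNAs above 0 in at least 3 libraries, of which 73 were of transporter hosts and 124 of the 197 did not enter. None was called higher and none lower, against 1.26% and 0.304% of all circRNAs tested. At an unadjusted p under 0.05 alone there were 4, or 5.48% against 5.2%, and the lowest adjusted p was 0.838. Of these 4, 3 entered only through their TLE values, so nothing is concluded from this share. Every TLE library lay above every Control library in 6, these 3 among them (8.22% against 8.94%), and below in 0 (against 2.11%). The median log2 fold change was 0.18, against 0.17 for all tested. The values ran from −0.97 to 1.39, the highest being that of mmu_circ_0007563, 1 of these 3.

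Of the 4 at an unadjusted p under 0.05, 3 were listed at 0 in every Control library and above 0 in every TLE library. Besides mmu_circ_0007563 of Slc24a2, these were mmu_circ_0000404 of Slc41a2 (chr10:83281370-83304375) and mmu_circ_0010034 of Slc10a7 (chr8:78515586-78578757), a member of the bile acid carrier family.
mmu_circ_0000404: cgccagttatcaacgGTAAATGTTGGGAAG
mmu_circ_0010034: tttggaagttttttgGACCACTGAAGCCAG
All 3 met the requirement of 3 libraries above 0 only through their TLE values, so no p is given for them. The first of the lines above, exons 4 to 8, was at 20.7, 35.1 and 26.0 SRPBM in TLE 1, 2 and 3. The second, exons 2 to 5, was at 20.7, 43.8 and 17.3 SRPBM. Each rested on 9 reads. In TLE 1, 2 and 3 these were 2, 4 and 3 for the first and 2, 5 and 2 for the second. Each TLE mean was 1.03-fold the floor of 3 reads per Control library, which is not a lower bound at so few reads. No transporter circRNA was above 0 in all 3 Control libraries and listed at 0 in all 3 TLE libraries.

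Slc10a7 was also the third host whose groups did not overlap, named here after its values were seen. Its 4 circRNAs summed to 17.1, 0 and 17.2 SRPBM in Control and 20.7, 61.4 and 34.6 SRPBM in TLE (log2 fold change 0.98, SE 0.63, limma adjusted p = 0.854).

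Partner genes and cell type markers were followed as hosts in the same table. None of 3 flippase chaperone genes and 2 of 10 pump accessory subunit genes were hosts, the higher being Atp1b3, a sodium pump subunit, at 68.4 to 121 SRPBM in Control and 41.3 to 190 SRPBM in TLE. Of 9 neuron markers, 7 were hosts and summed to 3623 to 4117 SRPBM in Control and 4194 to 5521 SRPBM in TLE. Every TLE library was above the Control range in this sum, which rested on 1 gene, Rims2, a scaffold of the presynaptic active zone, at 1795, 2083 and 2119 SRPBM in Control and 2427, 3191 and 2907 SRPBM in TLE. Without Rims2 the markers summed to 1829, 1925 and 1998 SRPBM in Control and 1766, 2183 and 2613 SRPBM in TLE, and the groups overlapped. Rbfox3, a splicing factor of neurons, was at 0, 18.6 and 34.5 SRPBM in Control and was listed at 0 in every TLE library. Of the 6 neuron markers tested, 0 were called (against 1.53% higher and 0.371% lower of all hosts) and 1, Rims2, was at an unadjusted p under 0.05 (against 6.17%). The part of these markers in the values of Slc24a2 and Slc8a3 was not tested. Of 7 astrocyte markers only Slc1a2 was a host, at 0 to 17.2 SRPBM in Control and 0 to 34.6 SRPBM in TLE, and none of the 6 oligodendrocyte, 6 microglia, 8 endothelial, 5 leukocyte or 4 skeletal muscle and liver markers was listed as one.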

How the data were processed

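The cortex of 3 Control and 3 TLE mice was sequenced (Illumina, paired reads, ribosomal RNA removed). The authors aligned reads to mm10, called circRNAs with CIRI and deposited a normalized signal per circRNA and library in SRPBM; their own comparison used DESeq2, whose counts were not used here. The 6 deposited files hold the same table, and 1 was read. Within each library all values were whole multiples of 1 step (tolerance 0.05 step), taken as 1 junction read and used for depths and the floor of 3 reads, which covers counting error only.

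Ensembl host identifiers were matched to symbols (3466 of 3469), and circRNA ends to exons of GENCODE M21 for GRCm38. TLE and Control were compared with limma 3.58.1 in R 4.3.3 (trended, two-sided, Benjamini-Hochberg adjustment over all features tested) on log2(SRPBM + 17.1), for features above 0 in at least 3 libraries, a scale that understates the change of low features. The procedure was checked on simulated reads with counting error only, in which large changes were placed in better-covered features. Pairs of replicate libraries here spread more than counting error, at a chi-square of 1.75 to 2.49 per degree of freedom. The check therefore does not cover circRNAs of few reads or the spread between mice. Single values per library were compared by exact permutation tests. The members, classes and lists were chosen with earlier results of these data known. Named were the 20 highest hosts, the highest host of each class, the 15 highest circRNAs, and circRNAs whose groups did not overlap at p under 0.05; others are named as chosen after their values were seen. Alternatives were the pseudocount, the filter, rescaling, the threshold, a replicate block, thinning and leaving out each library. The values of some items are not reported here.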

Additional observations from a re-analysis of the deposited data

How the results depend on the processing

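No transporter host or circRNA was called, and this depended on the threshold and on the pseudocount. A smaller pseudocount (8.55) called 3 circRNAs higher (mmu_circ_0000404 at 2.05, mmu_circ_0007563 at 2.07 and mmu_circ_0010034 at 2.0 on the log2 scale), all listed at 0 in Control and entered only through their TLE values, so that these calls follow from that entry and from the value added to 0, and over all circRNAs gave 121 higher and 47 lower in place of 54 and 13. A log2 fold change of at least 1 gave 4 circRNAs and 1 host higher. These 4 include the 3 above that entered only through their TLE values, and the share of all features at this threshold was not counted. An unadjusted p under 0.05 alone, chosen after seeing the data, gave the same counts of 4 and 1, beside 5.2% of all circRNAs and 6.17% of all hosts tested. No filter, a filter on the mean, rescaling and the replicate block gave 0 calls among transporters. Leaving out each library in turn gave 0 to 1 circRNAs higher, 0 to 1 lower, 0 to 1 hosts higher and 0 to 1 lower: the circRNAs were from Slc24a2 without Control 1, Slc9a9 without TLE 1, Slc4a4 without TLE 2 and Atp2b2 without TLE 3, and the hosts were Slc24a2 without TLE 1 and Atp2b2 without TLE 3. Over the whole table these settings called 33 to 104 circRNAs higher and 6 to 55 lower. They called 24 to 54 hosts higher and 2 to 22 lower.

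Replicate numbers were not taken as pairs. Deviations from the group means correlated at 0.019, 0.014 and 0.010 between libraries of the same number. Between libraries of different numbers the correlations ran from −0.024 to 0.009. All were small, and whether the numbers pair the libraries was not tested. In this balanced design a replicate block cannot alter a group difference or a fold change. The 945 of the summed SRPBM is therefore the same by construction, and the block could not add a transporter call. With it the whole-table calls were 54 and 13 circRNAs and 33 and 8 hosts.

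Differences between TLE and Control of the summed levels often turned with 1 library, and the cause was not tested. Over the libraries left out, the difference in share ran from −0.0239 to 0.0912 percentage points, in circRNAs detected from −0.667 to 20.8, and in SRPBM from −76.0 to 74.2 for the ABC transporters, −45.0 to 131 for the P-type pumps, −20.1 to 19.7 for the mitochondrial carriers and −32.9 to 50.1 for the nucleotide sugar transporters.

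Of the 23 named hosts 10 kept their direction under every alternative, and of the 18 named circRNAs 11 did. Rescaling turned the log2 fold change to −0.13 for Slc16a7, −0.095 for Slc20a2, −0.21 for Slc7a11, −0.10 for Slc8a1 and −0.10 for mmu_circ_0009823 of Slc20a2. Over the libraries left out, it ran from −0.41 to 0.13 for Abca8b, −0.47 to 0.34 for Atp2b1, −0.019 to 0.43 for Atp8a1 and −0.37 to 0.49 for Atp9a. It ran from −0.061 to 0.27 for Slc16a7, −0.22 to 0.41 for Slc20a2, −0.64 to 0.45 for Slc25a26, −0.019 to 0.67 for Slc33a1 and −0.54 to 0.34 for Slc35f5. It ran from −0.093 to 0.47 for Slc41a2, −1.47 to 0.19 for Slc4a4, −0.18 to 0.11 for Slc7a11 and −0.13 to 0.30 for Slc8a1. For circRNAs it ran from −0.45 to 0.028 for mmu_circ_0000108, −0.33 to 0.15 for mmu_circ_0000598, −0.10 to 0.39 for mmu_circ_0003865 and −0.25 to 0.20 for mmu_circ_0003866. It ran from −0.36 to 0.31 for mmu_circ_0005899, −0.18 to 0.062 for mmu_circ_0006762 and −0.40 to 0.56 for mmu_circ_0009823.

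Of the 197 transporter circRNAs 124 did not enter the comparison, with a median of 5 reads over all 197. In 26 of the 45 tested hosts the 95% interval of the log2 fold change reached the size of a call, so a change of that size could not be told from none. Ends within 5 bases of an exon boundary gave the same 90.4% of transporter circRNAs as exact ends.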

Other observations

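Among the transporter hosts not yet described, Slc38a1, which brings glutamine into neurons, was at 68.4, 65.1 and 51.7 SRPBM in Control and 103, 96.4 and 34.6 SRPBM in TLE. Slc2a13, the proton-coupled inositol transporter of the brain, was at 17.1, 37.2 and 43.1 SRPBM in Control and 31.0, 70.1 and 60.6 SRPBM in TLE. Slc44a1, the choline transporter whose 3 circRNAs all begin at exon 2, was at 42.7, 74.4 and 34.5 SRPBM in Control and 0, 17.5 and 77.9 SRPBM in TLE. Abca5, an ABC transporter of the lipid-carrying subfamily, was at 42.7, 74.4 and 34.5 SRPBM in Control and 0, 52.6 and 95.2 SRPBM in TLE. All 4 overlapped between the groups, and they were chosen after their values were seen.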
